A study of Saccharomyces cerevisiae with 4 samples.

Results

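TIR1, TIR2, TIR3, TIR4, DAN1 and DAN4 are genes of the budding yeast Saccharomyces cerevisiae that encode serine- and alanine-rich mannoproteins of the cell wall. They were chosen by their locus tags (YER011W, YOR010C, YIL011W, YOR009W, YJR150C and YJR151C), and all 6 were found among the 6484 features of the authors' deposited table. The study sequenced RNA from 2 groups, the strain BGL-6Kl and a strain that carries a deletion of YGP1 in the BGL-6Kl background, with 2 libraries each that the labels call biological replicates. Both groups therefore share whatever changes BGL-6Kl itself carries. Cultures were grown without treatment for 48 h in YPD at 30 °C and a shaking speed of 200 rpm. YPD is rich in glucose when fresh, and how much was left at 48 h is not known here. The labels do not say how many clones of either strain were used. The question was how the transcriptomes differed at the point when an activity the series calls BGL began to differ between the strains.

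The TIR and DAN proteins are joined to the wall glucan through a glycosylphosphatidylinositol (GPI) anchor. Well-aerated cells build their wall mainly with other GPI proteins such as Cwp1 and Cwp2, and oxygen-starved cells replace these with the TIR and DAN proteins. In air the genes are kept low by the repressors Rox1 and Mot3, which recruit the Tup1-Cyc8 corepressor, and ROX1 itself depends on haem and the activator Hap1. When sterols, whose synthesis needs oxygen, run short, the transcription factor Upc2 activates many anaerobic genes, and its paralog Ecm22 binds the same kind of site.

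The reference R64 was used only for names, gene order, coding lengths and sequence, because the build of the authors is not given in the sources used here, and no value was placed by coordinate. The first 60 coding bases of the 6 genes are shown because reads of closely related genes could be confused, and they let the family be compared by eye. These 60 bases encode the start of each protein, where the secretion signal lies. All are written 5′ to 3′ in the direction of the gene, and the sequences are those of the RefSeq R64 assembly.
TIR1, chrV:175248-175307, plus strand: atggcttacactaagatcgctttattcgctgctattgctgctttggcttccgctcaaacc
TIR2, chrXV:346891-346950, minus strand: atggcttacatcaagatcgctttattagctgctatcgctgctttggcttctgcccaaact
TIR3, chrIX:333727-333786, plus strand: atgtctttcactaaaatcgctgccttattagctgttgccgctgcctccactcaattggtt
TIR4, chrXV:344335-344394, plus strand: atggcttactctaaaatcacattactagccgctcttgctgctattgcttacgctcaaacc
DAN1, chrX:709648-709707, minus strand: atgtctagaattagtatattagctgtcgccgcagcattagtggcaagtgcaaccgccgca
DAN4, chrX:715681-715740, minus strand: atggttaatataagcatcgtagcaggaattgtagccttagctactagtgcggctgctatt

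TIR1 and TIR2 were the closest pair, with 83.3% of the first 150 coding bases identical after alignment, and DAN1 and DAN4 shared 69.3%. The lowest of the 15 pairs, TIR3 with DAN4 and TIR4 with DAN1, shared 51.3%. The longest exact stretch common to any pair was 40 bases, in TIR1 and TIR2, and begins at coding base 220 of both genes: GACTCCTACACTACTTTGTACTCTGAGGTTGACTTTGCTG. No stretch of 50 bases of any of the 6 coding sequences occurs elsewhere in R64. Repeats lie inside the genes instead: 13.0% of the 50-base stretches of TIR1, 20.2% of those of TIR4 and 19.9% of those of DAN4 recur within the same coding sequence. None of the 6 genes overlaps another annotated gene in R64. Neither the read length nor the handling of repeated reads is given in the sources used here.

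YGP1 itself, labelled as deleted, was reduced but not absent there, with means of 62470 in the parent and 18171 (adjusted p = 2.88e-08 by the authors' deposited table). For each strain 3 pairs of library values fit that mean, so its level in each library is not known. The check of the labels by this gene is therefore incomplete, and "deletion strain" below stands for the strain so labelled. The deposited values are strain means of read counts that the authors had divided by a size factor per library. Whole reads of both libraries were recovered from these means for 6183 features, summing to 14987529 and 12550102 in libraries A and B of the parent (over the features solved there) and to 10154385 and 7419301 in those of the deletion strain. Letters rank a strain's libraries by size factor, and how they relate to the labels' replicate numbers is not known. All 6 genes were among the features recovered, with 25 to 1148 reads per library. Over the 5266 features in which every library had 50 reads or more, the libraries of a strain differed by a median of 0.18 (parent) and 0.28 (deletion strain) on the log2 scale.

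All 6 genes had a higher mean in the deletion strain, by 1.38-fold (DAN4) to 5.08-fold (TIR2). TIR1 and TIR2 rose at an adjusted p below 0.05 in the authors' deposited table, and the other 4 did not pass. Of all features 9.65% were called higher. The median log2 fold change of the 6 genes was 1.13, against 0.04 over all features. In each of the 6 both deletion libraries lay above both parental libraries, as they did for 33.2% of all recovered features. Of all features 51.7% had a higher mean in the deletion strain. In RNA from whole cultures, more cells that express a gene and more transcript per expressing cell cannot be told apart.

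**Figure D1:**
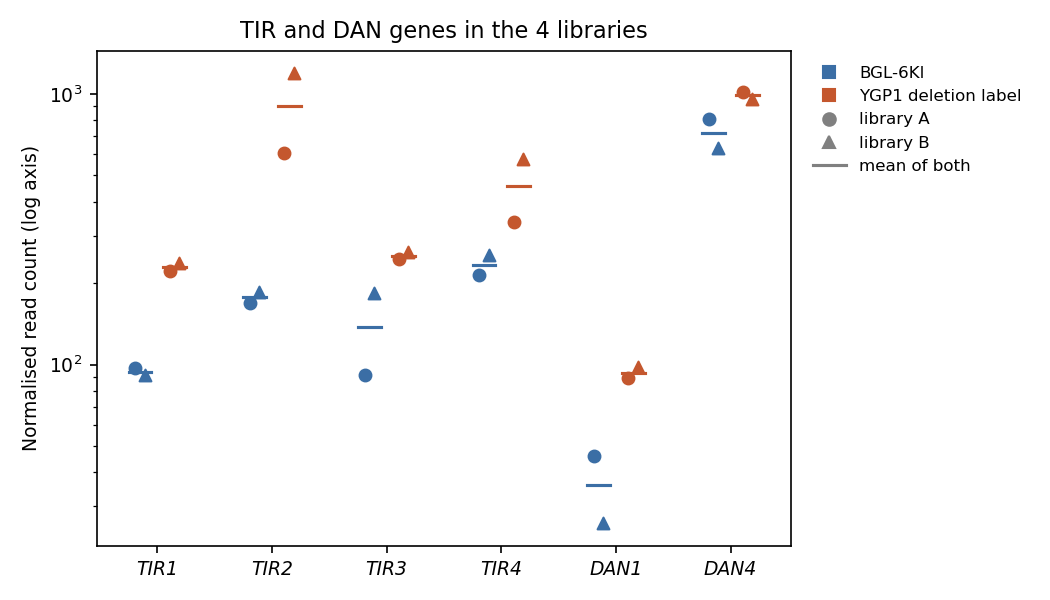
Normalised read count (log axis) of the 6 genes in each recovered library: blue for BGL-6Kl, orange for the deletion strain, circles for library A, triangles for library B and bars for the strain mean. Both orange points lie above both blue points for every gene, with the widest gap for TIR2 and the narrowest for DAN4.

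TIR2, which is also induced by cold shock, showed the largest difference of the 6. It had 169 and 186 normalised reads in parental libraries A and B and 608 and 1194 in deletion libraries A and B. The groups were far apart, with the lower deletion library 3.27-fold above the higher parental library, but the deletion libraries themselves differed 1.96-fold, more than 96.6% of features with enough reads. The log2 fold change was 2.35 (5.08-fold, adjusted p = 0.0398 by the authors' deposited table), rank 139 of all features by fold change. That ranking puts features without parental reads first, and 76 features had a parental mean of 0. In limma's moderated test on the recovered libraries it was 2.26 ± 0.31 (SE, 95% interval 1.58 to 2.94, adjusted p = 0.000833). TIR1, the closest relative of TIR2 and likewise a cold shock gene, had 97.0 and 91.3 in the parent and 221 and 238 in the deletion strain. Its libraries agreed within 1.08-fold in each strain, the smallest spread of the 6 genes over both strains. The log2 fold change was 1.29 (2.44-fold, adjusted p = 0.01 by the authors' deposited table), and limma gave 1.28 ± 0.28 (SE, adjusted p = 0.00734). TIR1 and TIR2 passed in each of the 11 limma fits tried, among them those without each library in turn.

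TIR3 and TIR4 differed by less than 2-fold and did not pass in the authors' deposited table. TIR3 had 91.8 and 184 normalised reads in the parent, and the deletion libraries had 246 and 260. The parental libraries were 2.0-fold apart, more than 99.0% of features, while the deletion libraries lay close together. Its log2 fold change was 0.88 (adjusted p = 0.0648 by the authors' deposited table). The limma estimate of 0.96 (95% interval 0.21 to 1.71, adjusted p = 0.0568) moved with the parental libraries, to 0.46 without library A (adjusted p = 0.423) and to 1.45 without library B (adjusted p = 0.00442). TIR4 had 214 and 254 in the parent and 338 and 574 in the deletion strain, so the deletion libraries were 1.70-fold apart. Its log2 fold change was 0.96 (adjusted p = 0.22 by the authors' deposited table). With limma it was 0.91 ± 0.29 (SE) and passed (adjusted p = 0.037), but not without deletion library B (adjusted p = 0.184) or parental library A (adjusted p = 0.0923).

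DAN1 and DAN4, neighbours on chromosome X in the same orientation with 2547 bases between them, differed in level and in how far the strains were apart. DAN1 had the fewest reads, with normalised counts of 45.9 and 25.9 in the parent, against 88.9 and 97.9 in the deletion strain. The value of parental library B rests on 25 reads (95% exact Poisson interval 16.2 to 36.9, which covers counting error only), and the parental libraries were 1.77-fold apart. Its log2 fold change was 1.38 (2.60-fold, adjusted p = 0.0557 by the authors' deposited table). With limma DAN1 passed (1.41 ± 0.41 SE, adjusted p = 0.0258), but only 1 of the 4 fits that left out a library kept the call, that without parental library A. DAN4, the longest of the genes with 3486 coding bases, had 806 and 632 in the parent and 1020 and 961 in the deletion strain. The lower deletion library exceeded the higher parental library 1.19-fold, the narrowest gap of the 6. Its log2 fold change of 0.46 did not pass in the authors' deposited table (adjusted p = 0.304) or in any of the 11 limma fits. With all libraries and the trend the limma 95% interval ran from -0.01 to 0.95, and after quantile normalization it lay just above 0. Limma called 4 of the 6 genes higher, TIR1, TIR2, TIR4 and DAN1, against 13.9% of all features it tested. It uses the same 4 libraries as the authors' test, so it is no separate check. The interval of TIR2 overlapped those of TIR1, TIR3 and DAN1 and lay above those of TIR4 and DAN4, but whether members differed from each other in their response was not tested.

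**Figure D2:**
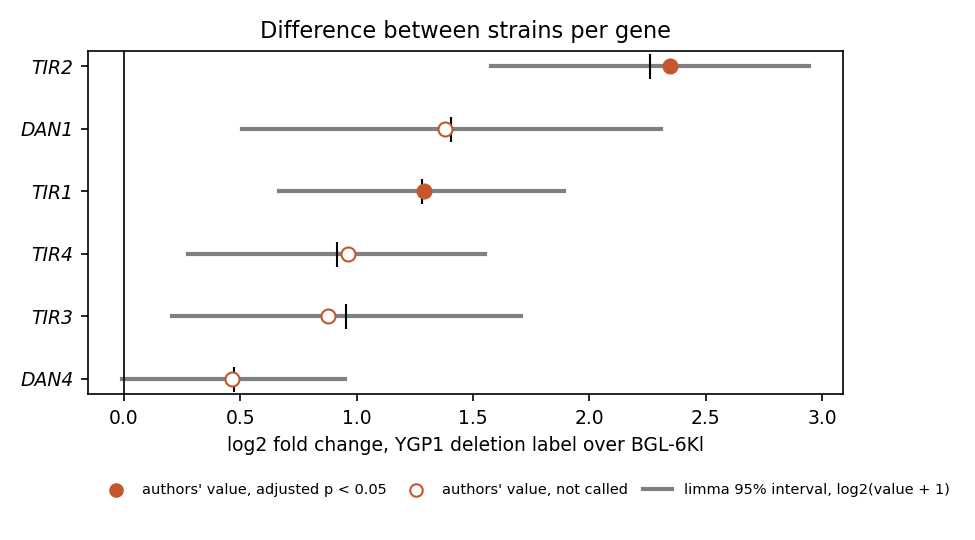
Log2 fold change of each gene, deletion strain over BGL-6Kl: circles show the authors' value (filled where their adjusted p is below 0.05), grey bars the 95% interval of limma on log2(value + 1) and ticks its estimate. The circles of TIR2 and TIR1 are filled, and the bar of DAN4 alone reaches below 0.

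Per kilobase of coding length the 6 genes were weakly expressed in the parent. TIR2 had 235 normalised reads per kb there, DAN4 206, TIR3 170, TIR4 160, TIR1 123 and DAN1 40.0. These levels lay between the 3.57 and the 24.0 percentile of the 5859 features with a coding length. In the deletion strain TIR2 had 1192 reads per kb and reached the 62.9 percentile. TIR3, TIR4, TIR1 and DAN4 had 312, 311, 301 and 284, between the 26.7 and the 29.1 percentile, and DAN1 had 104, at the 9.66 percentile. DAN1 was the lowest in each of the 4 libraries and TIR2 the highest in 3 of them. The order of the other 4 changed between libraries, also between those of 1 strain. In both parental libraries DAN4 lay above TIR4 and TIR4 above TIR1, while TIR3 changed place. In both deletion libraries TIR3 lay above TIR1. Summed per kb, the 6 genes went from 934 to 2504, a ratio of 2.68, and TIR2 made up the largest share of the second sum.

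The 6 other GPI wall protein genes listed here, called aerobic for short, had lower means in the deletion strain. The list was chosen with earlier results of these data known, so its share of calls is a description and not a test. Of the 6 on the list, CWP1, CWP2, CCW12, CCW14 and SED1 fell in the authors' deposited table, where 10.3% of all features were called lower. TIP1, a relative of the TIR genes, was 1.89-fold lower and did not pass (adjusted p = 0.0652). The median log2 fold change of the list was -1.21. CWP1 was 7.92-fold lower, with means of 40261 and 5084 (adjusted p = 4.62e-21 by the authors' deposited table). CWP2 was 2.65-fold lower, from 56741 to 21435 (adjusted p = 1.49e-05 by the authors' deposited table), and CCW12, an abundant covalently linked wall protein, 5.41-fold lower (adjusted p = 0.0114 by the authors' deposited table). Library values of these 6 abundant genes could not be recovered. In both strains the aerobic list far exceeded the TIR and DAN genes. Its summed level per kb was 2047 times theirs in the parent and 345 times in the deletion strain. Without SED1, the most abundant of the list, the ratios were 560 and 70.6.

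**Figure D3:**
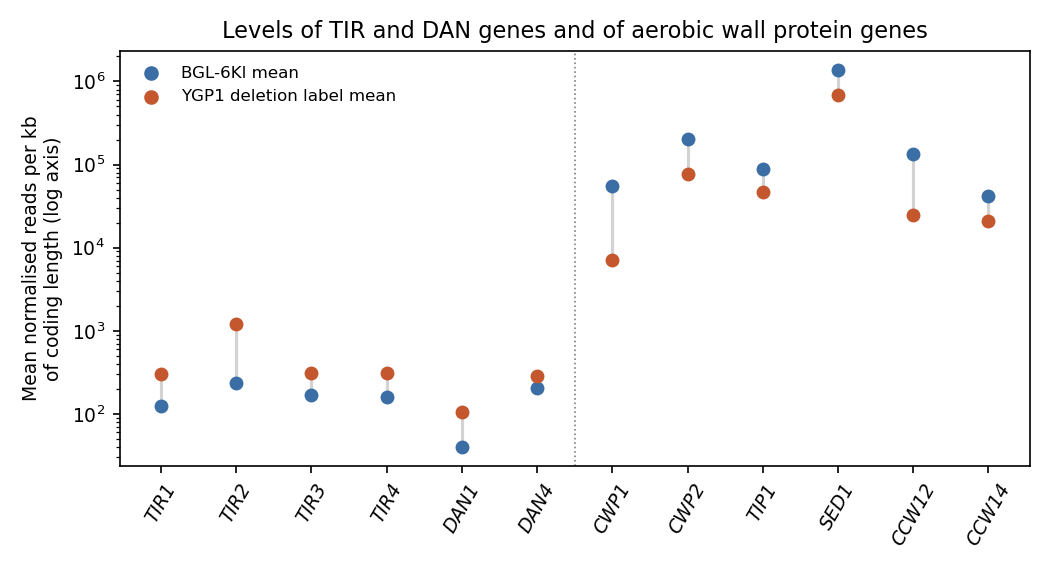
Mean normalised reads per kb of coding length (log axis) of the 6 TIR and DAN genes, left, and of 6 aerobic GPI wall protein genes, right, in BGL-6Kl (blue) and the deletion strain (orange). Orange lies above blue on the left and below it on the right, and every aerobic gene is above every TIR or DAN gene in both strains.

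Among the repressors of the family, ROX1 fell, 1 of 5 genes on that list where 10.3% of all features were called lower. ROX1 had 7963 and 8592 normalised reads in the parent, against 2909 and 1921 in the deletion strain (log2 fold change -1.78, 3.43-fold lower, adjusted p = 1.22e-07 by the authors' deposited table). MOT3 had 3118 and 2963 against 2396 and 1377 (log2 fold change -0.69, adjusted p = 0.14 by the authors' deposited table). HAP1, the haem-dependent activator of ROX1, had a log2 fold change of -0.52 (adjusted p = 0.204), and the corepressor genes TUP1 and CYC8 of -0.47 and -0.22. In all 5 genes both deletion libraries lay below both parental ones, as in 33% of all recovered features. Without deletion library A limma called 4 of the 5 lower, in a fit that called 17.4% of all features lower. With all libraries it called 1 of the 5, and 14.9% of all features.

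Among activators and sterol uptake genes, 1 of 8 rose and 1 fell in the authors' deposited table, close to the 9.65% and 10.3% of all features called in each direction, and the median log2 fold change of the list was 0.23. UPC2, the sterol-sensing activator, had 389 and 399 normalised reads in the parent and 543 and 446 in the deletion strain (log2 fold change 0.33, adjusted p = 0.491 by the authors' deposited table). ECM22 had 1267 and 1556 against 1990 and 3377 (log2 fold change 0.93, adjusted p = 0.238 by the authors' deposited table, and adjusted p = 0.029 with limma). PDR11, a plasma membrane transporter for sterol uptake in oxygen-starved cells, rose 2.51-fold, from 521 and 506 to 1258 and 1323 (adjusted p = 0.000246 by the authors' deposited table). AUS1, the other sterol uptake transporter, had 592 and 812 in the parent and 329 and 1022 in the deletion strain, so its groups overlapped (adjusted p = 0.935 by the authors' deposited table). SUT1, a regulator of sterol uptake, fell 4.64-fold, from 1124 and 1864 to 323 and 321 (adjusted p = 0.00533 by the authors' deposited table). MGA2 and SPT23, membrane-bound activators of the fatty acid desaturase gene OLE1, and SUT2 did not pass in the authors' deposited table. SPT23 had 4984 and 5540 normalised reads in the parent and 3321 and 3338 in the deletion strain (log2 fold change -0.66), and limma called it lower (adjusted p = 0.0319). With limma the list thus had 2 genes called higher and 2 called lower.

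All 9 hypoxic genes on the list had higher means, as did 51.7% of all features, and 4 rose in the authors' deposited table, where 9.65% of all features were called higher (median log2 fold change 1.03). CYC7, the hypoxic form of cytochrome c, rose 4.03-fold, from 2150 and 1294 to 7175 and 6692 (adjusted p = 6.67e-10 by the authors' deposited table). FRD1, a fumarate reductase, rose 2.77-fold, HEM13, a haem synthesis enzyme that Rox1 represses, 2.38-fold, and COX5B, the hypoxic subunit of cytochrome c oxidase, 2.05-fold (adjusted p = 2.68e-05, 0.0018 and 0.00386 by the authors' deposited table). The others did not pass. ANB1, the hypoxic translation factor gene and a classic Rox1 target, had 76.2 and 113 in the parent and 133 and 143 in the deletion strain (adjusted p = 0.396 by the authors' deposited table). AAC3, the hypoxic ADP/ATP carrier, had 13.9 and 17.6 against 49.8 and 42.7 (2.94-fold, adjusted p = 0.102 by the authors' deposited table). OLE1 had a log2 fold change of 0.12.

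The seripauperins, a subtelomeric family of short relatives of the TIR proteins, were less uniform. Of 24 genes on the list 16 were found by locus tag in the authors' deposited table and the other 8 were not, so the count and median rest on the 16. Of these, 3 rose in the authors' deposited table, against 9.65% of all features, with a median log2 fold change of 0.46. PAU23, also named DAN2, rose 2.17-fold, from 458 and 302 to 840 and 812 (adjusted p = 0.00439 by the authors' deposited table). PAU4 rose 2.75-fold and PAU3 4.64-fold, both from low parental means (adjusted p = 0.0374 and 0.0269 by the authors' deposited table). PAU24, also named DAN3, had 50.2 and 25.9 against 17.8 and 21.3 (log2 fold change -0.96, adjusted p = 0.365 by the authors' deposited table). Members of this family are near-identical, so their reads could be split between copies. PAU2, the most abundant of the 16 in the parent, had 468 and 467 there and 305 and 237 in the deletion strain (log2 fold change -0.79, adjusted p = 0.0884 by the authors' deposited table). With limma 3 of 16 were called higher and 1, PAU2, lower (adjusted p = 0.0304), against 13.9% and 14.9% of all features tested. Fewer of the 16 were called higher without parental library B, in a fit that also called a smaller share of all features higher. Fewer were also called higher without deletion library B. Each of these fits left 1 library in a strain.

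**Figure D4:**
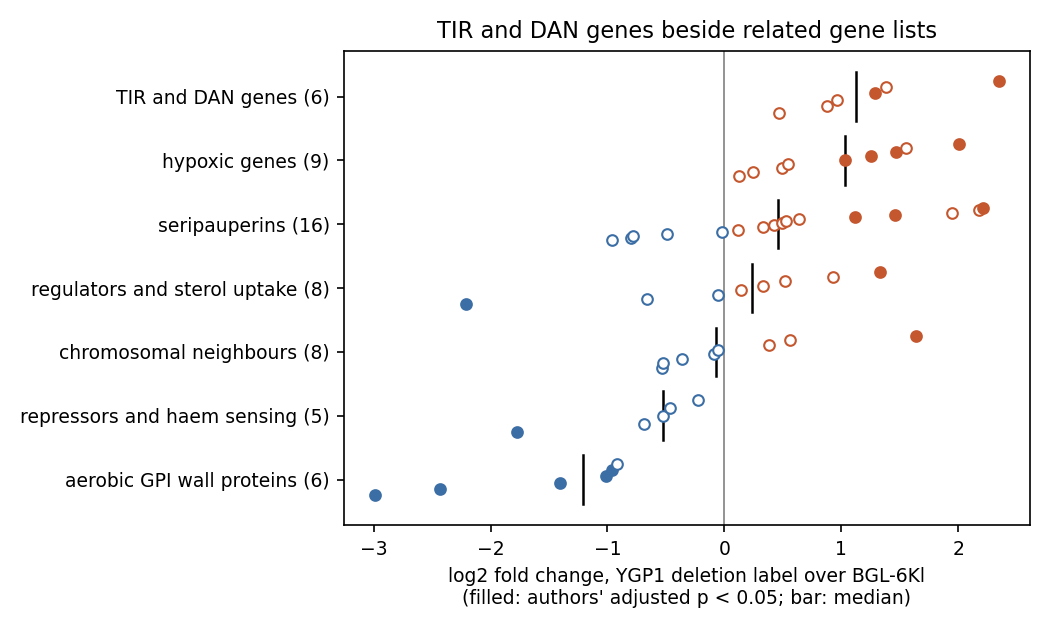
Log2 fold change in the authors' deposited table, deletion strain over BGL-6Kl, for the TIR and DAN genes and 6 related lists: each circle is a gene, filled where the adjusted p is below 0.05, and bars mark the list medians. The medians run from 1.13 for the TIR and DAN genes to -1.21 for the aerobic GPI wall proteins.

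Of 8 neighbours of the family in the genome 1 rose in the authors' deposited table, close to the 9.65% of all features called higher. It was YIL012W, an open reading frame between PDR11 and TIR3, with 8.66 and 31.1 normalised reads in the parent and 52.4 and 71.5 in the deletion strain (adjusted p = 0.0468 by the authors' deposited table). The median log2 fold change of the neighbours was -0.07. PDR11, on the far side of YIL012W, points away from TIR3, with 1284 bases between the coding sequences. On chromosome XV, TIR4 and TIR2 face each other with 396 bases between their ends, and AUS1 starts 2728 bases from TIR2 and points away from it. All 3 were higher in deletion library B than in deletion library A, AUS1 3.11-fold, TIR2 1.96-fold and TIR4 1.70-fold. Of features with enough reads 42.4% were higher in deletion library B. ECM22 was also 1.70-fold higher there, TIR1, TIR3 and DAN1 were higher by at most 1.10-fold, and DAN4 was lower. In parental library B, AUS1, TIR2 and TIR4 were higher than in parental library A as well, 1.37-fold, 1.10-fold and 1.19-fold.

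For each member the 2 genes outside the family with the most similar profile were found by the root mean square difference of log2(value + 1), centred on the gene's mean, over the 4 libraries and among 5426 features with a mean of at least 50. The gene nearest to TIR1 was PDR11, at a distance of 0.031, followed by MCH4, a putative transporter, at 0.039. The gene nearest to TIR4 was ECM22, at 0.022, followed by LDH1, a lipase gene, at 0.078. DAN4 was nearest to SMI1, a regulator of wall glucan synthesis, at 0.013, and to YOR111W. DAN1 was nearest to PRM9 at 0.054 and KEL2 at 0.075. TIR3 was nearest to the subtelomeric reading frame YPR202W at 0.12 and to YJR124C. TIR2 had no close match, with RTT107, a DNA repair gene, at 0.25 and ALR2 at 0.27. With only 4 libraries such distances describe the profiles and carry no test. The members were not each other's nearest genes: the closest pair, TIR1 and DAN1, was 0.26 apart. Of the 5426 features 407 were nearer to TIR1 than DAN1 was, and 133 were nearer to DAN1 than TIR1 was.

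**Figure D5:**
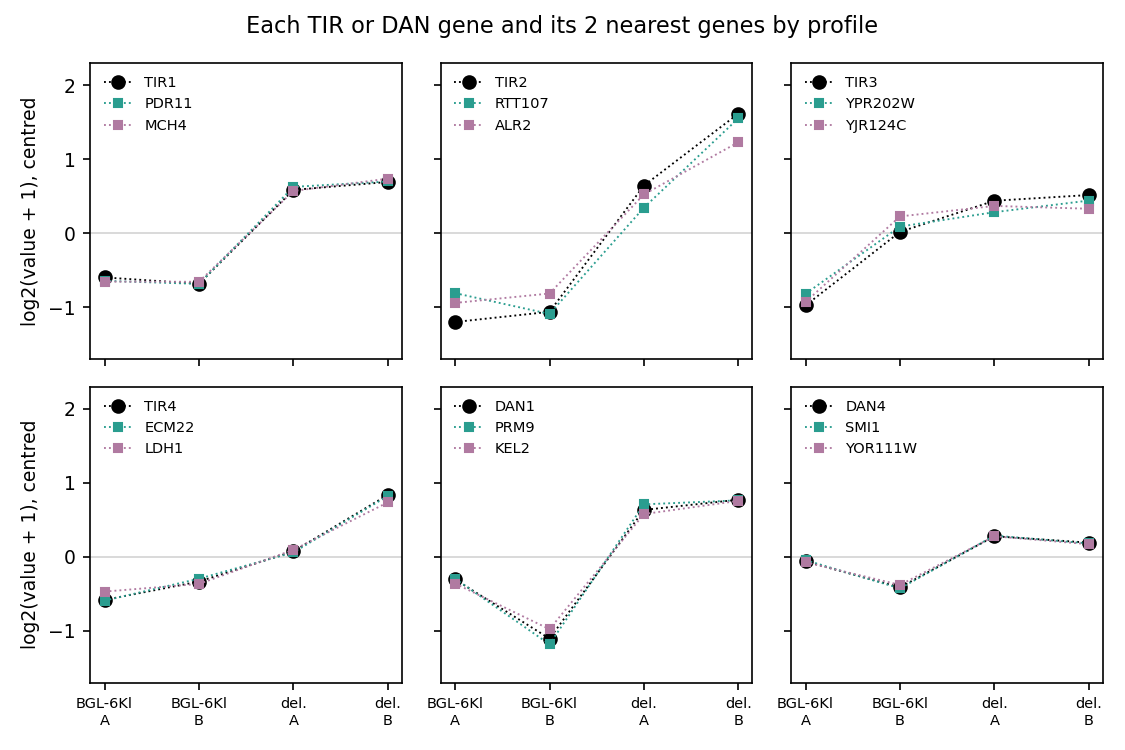
Log2(value + 1) in the 4 libraries, centred on the mean of each gene, for every TIR or DAN gene (black circles) and its 2 nearest genes outside the family (coloured squares); dotted lines only join the points of a gene. TIR1 and PDR11, TIR4 and ECM22, and DAN4 and SMI1 nearly coincide, and TIR2 lies furthest from its neighbours.

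The upstream sequences were searched for short motifs tied to the regulators of the family. The motifs were TCGTATA and TCGTTTAG, of the kind bound by Upc2 and Ecm22, ATTGTTC, the core of Rox1 sites, and AGGCA, the core of Mot3 sites, on both strands. Different motifs can overlap only at their ends, by at most 2 bases. In the window from 250 bases before to 50 after the start codon, TCGTATA was present in DAN1 and DAN4 and in 4.15% of 6001 R64 promoters. TCGTTTAG was present in TIR4 and in 0.933% of promoters, ATTGTTC in TIR2 and TIR3 and in 7.65%, and AGGCA in 3 of the 6 and in 35.3%. Within 500 bases before the start codon, TCGTATA was also found at TIR3 (7.0% of 6000 promoters), TCGTTTAG at DAN1 (1.78%) and ATTGTTC at DAN4 (11.8%). AGGCA was then found in all 6 and in 51.8% of promoters. TIR1 held none of the first 3 motifs in either window. PDR11 held TCGTTTAG 430 bases before its start codon. The sites of the first 3 motifs are shown with 8 bases on either side, in R64, 5′ to 3′ on the strand of the gene. The motif or its reverse complement is in capitals.
DAN1, 203 bases before the start codon, chrX:709896-709918, minus strand: ccaagatcTATACGAggcctcta
DAN4, 222 bases before, chrX:715948-715970, minus strand: tcaaaaatTATACGAgatctgtt
TIR3, 421 bases before, chrIX:333298-333320, plus strand: attggcctTATACGAggcgtact
TIR4, 223 bases before, chrXV:344104-344127, plus strand: cagggttcCTAAACGAtgcatttc
DAN1, 412 bases before, chrX:710104-710127, minus strand: tttatctgTCGTTTAGcacatatg
PDR11, 430 bases before, chrIX:332857-332880, minus strand: gtccgtttTCGTTTAGgcacttcg
TIR2, 103 bases before, chrXV:347039-347061, minus strand: cgaaattcGAACAATgagagctc
TIR3, 243 bases before, chrIX:333476-333498, plus strand: ggcgacccATTGTTCctgtttac
TIR3, 25 bases before, chrIX:333694-333716, plus strand: cagatccaATTGTTCaaccgccc
DAN4, 358 bases before, chrX:716084-716106, minus strand: taagagcaGAACAATttaggcac

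These matches describe the reference sequence only. The members with the largest and the smallest difference, TIR2 and DAN4, both held a Rox1-type match within 500 bases, and DAN4 held a Upc2-type match as well. TIR1, which rose, held none of the searched strings of either kind there. Only exact strings were searched, so sites that vary from them would be missed. Whether such sites bear on the difference between strains was not tested.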

How the data were processed

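Total RNA from 48 h cultures was extracted with TRIzol and made into Illumina libraries, per the labels' protocols. The sources used here do not give the aligner, counter, build, strandedness or test, so antisense reads cannot be told apart. The deposited signal per strain is the mean of both libraries' read counts, each divided by a size factor, as its values show, and the authors also deposited for each feature a log2 fold change and a p-value, raw and adjusted. The authors' adjusted p below 0.05 is the call used, since the table holds no value per library.

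Each mean was split into whole reads by fitting 2 step sizes (size factors 1.16 and 0.964 for BGL-6Kl, 1.13 and 0.797 for the deletion strain) and listing all pairs within 0.55 of the last digit. The pair was unique for 98.2% of features for BGL-6Kl and for 95.6% for the deletion strain. Limma 3.58.1 in R 4.3.3 (intensity trend, 2-sided, Benjamini-Hochberg) was fitted to log2(value + 1) of 6115 recovered features with a mean of at least 1, a scale that understates changes of low genes. Features without any spread (30 without a deletion library) were dropped. Both steps were also run on simulated data. The limma simulation used a fixed spread between libraries, so it does not show how the calls hold at the spread seen here. An exact permutation test of 2 against 2 libraries reaches p = 0.333 at best and was not used. Nothing says whether replicates came from separate clones, so p-values cover only the spread seen among these libraries. R64 held 5869 of the 6484 names; coding sequences were aligned with Biopython 1.88.

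The members and gene lists were chosen with earlier results of these data known. Named were the members, list genes past the threshold, the main regulators, both sterol transporters and the 2 nearest profiles per member; others of a list were named after their values were seen.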

Additional observations from a re-analysis of the deposited data

How the results depend on the processing

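The small number of libraries limits every call. The authors' test called 1296 features, 793 at an adjusted p below 0.01 and 887 with at least 2-fold. Limma called 1757, 718 without the intensity trend and 835 to 1950 without each library in turn. Of the 6 TIR and DAN genes the authors' test called 2, and 1 (TIR1) at an adjusted p below 0.01. Limma called 4 with the trend, with pseudocounts of 0.5 and 5, without a filter and with a mean of at least 10; it called 3 after quantile normalization, 2 without the trend and 2 to 4 without each library. In the 11 limma fits no member changed direction. Alternatives added after seeing the data were limma on the lists and the wider promoter window. Limma called 5 of 8 hypoxic genes higher (4 to 5 without each library), 1 repressor lower (1 to 4), 2 activator and uptake genes higher (1 to 2) and 2 lower, and 3 seripauperins higher (0 to 3) and 1 lower, against 13.9% higher and 14.9% lower of all features; the cause was not tested. In the window of 500 bases TCGTTTAG was found in 2 members in place of 1 and AGGCA in 6 in place of 3. That window reaches further before the start codon but leaves out the 50 bases after it. No paired analysis was possible because the columns carry no replicate numbers.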
